A study of Mus musculus with 4 samples.

Results

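Of 56393 genes in the deposited table, 8 are described here: the acute phase genes Lcn2, Saa3, Cp, Hp and Orm1, the cytokine gene Il6, the metalloreductase gene Steap4 and the inducible nitric oxide synthase gene Nos2. They were taken by gene symbol, as genes that are known to be induced together in inflammation, and were chosen by their measured levels in these libraries as well as by what is known of them. Their levels and ratios are therefore a description, and nothing was tested. The RNA came from MPC, a mouse podocyte cell line that is conditionally immortalised. Podocytes are glomerular epithelial cells whose foot processes enclose the capillaries of the kidney filter. The 4 groups, with 1 library each, were cells with a hairpin against Jaml in high glucose (sh-JAML/HG), cells with a control hairpin in high glucose (sh-NC/HG), cells with the hairpin against Jaml and no added glucose (sh-JAML), and cells with the control hairpin and no added glucose (sh-NC). High glucose was D-glucose brought to 40 mmol/L for 24 h, and no osmotic control is named. All 4 cultures shared growth at 33 °C in 20 U/ml interferon-gamma and 10% serum, followed by 7 days of differentiation at 37 °C after interferon-gamma was withdrawn.

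The acute phase response is the change in secreted proteins that follows infection or injury. Interleukin-6 acts through gp130 and STAT3, and interleukin-1 and tumour necrosis factor act through NF-kB. C/EBP factors act on many of the same genes. The liver makes most acute phase protein, but epithelial cells can make some of it, and lipocalin-2, the product of Lcn2, is used as a marker of kidney injury. Inducible nitric oxide synthase is switched on by the same cytokines and by interferon-gamma.

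The 4 libraries held 79330461 to 94341975 counts, and 23148 to 23736 genes had a count above 0. Low values piled up at multiples of 4, so 4 units were read as 1 sequenced fragment. The floor used below is 3 fragments, or 12 units, which is 0.129 to 0.151 CPM, the count per 1000000 after scaling with TMM factors. Intervals and floors cover counting error alone, so differences between cultures are not in them. Jaml, which the hairpin was aimed at, had 0 units in every library, so these counts do not check the hairpin label. Of 10 podocyte markers, 7 passed a mean count of 50, while Ptpro had 0 to 4 units. The most distinct library was sh-NC/HG: 613 of 14187 measured genes were at least 2-fold above the mean of the other 3 libraries there, against 121 to 156 genes for each other library. Its summed level of the 13 mitochondrially encoded protein genes was 13422 CPM, against 19779 to 21213 CPM in the other libraries. With 1 library per group, the condition and the library cannot be told apart in any result below. In bulk RNA, fewer expressing cells and less RNA per cell cannot be told apart either.

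The promoter letters of the members counted above the floor are shown first, because these genes were high in the same library. RefSeq promoter windows on GRCm38.p6, from 250 bases before the start of a gene, were matched for 5 of the 8 genes. No window was matched for Nos2, Hp and Orm1. Runs are given 5′ to 3′ on the strand of the gene and stop at the first base annotated as UTR, which does not keep all exon bases out of them. Capitals mark a match to a C/EBP motif, TTGCNNAA on either strand. The windows are Lcn2 at chr2:32387798-32387989 on the minus strand, Saa3 at chr7:46715701-46715926 on the minus strand, and Cp at chr3:19956804-19957053 on the plus strand. The RefSeq start of Lcn2 lies inside the gene as GENCODE M21 draws it, and 197 of the 250 bases before that start fall in annotated exons, among them 139 of the 192 bases printed. The printed runs of Saa3 and Cp hold 0 bases of annotated exons.
Lcn2: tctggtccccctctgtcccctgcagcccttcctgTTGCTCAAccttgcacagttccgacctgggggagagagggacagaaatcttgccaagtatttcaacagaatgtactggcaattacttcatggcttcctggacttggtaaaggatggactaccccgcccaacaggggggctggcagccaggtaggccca
Saa3: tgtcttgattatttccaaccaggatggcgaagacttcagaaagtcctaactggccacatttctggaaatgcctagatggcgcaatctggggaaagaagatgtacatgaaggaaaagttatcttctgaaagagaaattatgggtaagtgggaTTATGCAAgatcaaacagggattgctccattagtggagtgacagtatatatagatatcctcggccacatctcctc
Cp: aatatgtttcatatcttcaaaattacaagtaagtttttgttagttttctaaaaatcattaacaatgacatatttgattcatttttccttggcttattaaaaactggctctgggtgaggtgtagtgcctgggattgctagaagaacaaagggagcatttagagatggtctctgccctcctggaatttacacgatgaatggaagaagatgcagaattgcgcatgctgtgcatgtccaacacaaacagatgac
The search used 3 motifs on both strands: GGGANNNNCC for NF-kB, TTGCNNAA for C/EBP and TTCNNNGAA for STAT. Of 32851 windows of the same length in the table, 17.6% held the NF-kB letters, 9.56% the C/EBP letters and 7.02% the STAT letters. The Lcn2 window held the C/EBP letters as TTGCTCAA on the strand of the gene, 216 to 209 bases before the start, inside an exon of a longer annotated Lcn2 transcript. The Saa3 window held them on the opposite strand, read as TTATGCAA on the strand of the gene, 99 to 92 bases before the start. The window of the first annotated start of Cp held none of the 3 motifs. The window of a second annotated Cp start held the NF-kB letters 146 to 137 bases and the C/EBP letters 70 to 63 bases before it, both on the opposite strand, and all bases of both matches lie in an annotated Cp exon. The Il6 window held C/EBP letters 128 to 121 bases before the start, and NF-kB letters on both strands that overlap, at 44 to 35 and 43 to 34 bases. The Steap4 window held C/EBP letters, a STAT match that reads alike on both strands, and NF-kB letters at 2 places. A match describes letters only, and binding was not measured.

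Lcn2, Saa3, Nos2 and Cp were higher with added glucose in the cells with the control hairpin, and no such increase was seen in the cells with the hairpin against Jaml. Lcn2 was 34.5-fold, Saa3 25.5-fold, Nos2 99.4-fold and Cp 2.58-fold higher in sh-NC/HG than sh-NC. In sh-JAML/HG, Saa3 and Nos2 had no count at all, and Lcn2 and Cp were at the level of sh-JAML within counting error. Hp, Il6, Orm1 and Steap4 were at or under the floor in all 4 libraries.

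Lcn2, on chromosome 2 from 32384633 to 32388252 (ENSMUSG00000026822, minus strand, mm10), encodes lipocalin-2, which binds bacterial iron carriers. It had 42 units in sh-JAML/HG and 1092 in sh-NC/HG, against 56 in sh-JAML and 27 in sh-NC, which is 0.496, 11.7, 0.698 and 0.339 CPM in the same order. The sh-NC/HG library stood alone, and the other 3 lay within a narrow band just above the floor. The ratio of sh-NC/HG over sh-NC was 34.5-fold higher, with an exact 95% counting interval of 15.9 to 83.4. The ratio of sh-JAML/HG over sh-JAML was 1.41-fold lower, with an interval of 0.566 to 3.27 that includes no difference. Between the libraries in high glucose, Lcn2 was 23.6-fold lower in sh-JAML/HG than in sh-NC/HG (12.4 to 45.6). Without added glucose it was 2.06-fold higher in sh-JAML than in sh-NC (0.749 to 5.80), which again includes no difference. In order of level, sh-NC/HG was followed by sh-JAML, sh-JAML/HG and sh-NC, and neighbours among the last 3 did not differ beyond counting error.

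Saa3, on chromosome 7 from 46711998 to 46715700 (ENSMUSG00000040026, minus strand), encodes serum amyloid A3, the form made mostly outside the liver in mice. It had 0 units in sh-JAML/HG and 479 in sh-NC/HG, against 27 in sh-JAML and 16 in sh-NC, so its levels were 0, 5.13, 0.336 and 0.201 CPM. Both libraries without added glucose held a few fragments, and sh-JAML/HG held none. Saa3 was 25.5-fold higher in sh-NC/HG than sh-NC (9.73 to 95.4). It was at least 36.2-fold lower in sh-JAML/HG than in sh-NC/HG, taking the library at 0 as the floor of 3 fragments. Against sh-JAML, the same bound gave at least 2.37-fold lower in sh-JAML/HG, with a counting interval that starts at 1.52. Without added glucose, the ratio of sh-JAML over sh-NC was 1.67-fold higher (0.441 to 8.08), which includes no difference. Of the 50-base stretches of its transcripts, 4.15% also occur in transcripts of other genes, so a small part of its reads can be assigned elsewhere.

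Nos2, on chromosome 11 from 78920787 to 78960254 (ENSMUSG00000020826, plus strand), encodes inducible nitric oxide synthase, which makes nitric oxide from arginine. It had 0 units in sh-JAML/HG and 583 in sh-NC/HG, against 5 in sh-JAML and 5 in sh-NC, and the level in sh-NC/HG was 6.25 CPM. It was above the floor in sh-NC/HG alone. The ratio of sh-NC/HG over sh-NC was 99.4-fold higher, but sh-NC held 1.25 fragments by the rule of 4 units, and the interval ran from 22.0 to 4948. Nos2 was at least 44.0-fold lower in sh-JAML/HG than in sh-NC/HG. No fold is given for sh-JAML/HG over sh-JAML or for sh-JAML over sh-NC, where both libraries were under the floor.

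Cp, on chromosome 3 from 19957054 to 20009145 (ENSMUSG00000003617, plus strand), encodes ceruloplasmin, the copper-carrying ferroxidase of plasma. It was the one member counted deeply in every library, with 14160 units in sh-JAML/HG and 50952 in sh-NC/HG, against 13798 in sh-JAML and 16848 in sh-NC. These are levels of 167, 546, 172 and 212 CPM. The sh-NC/HG library was again the high one, with the other 3 close together. Cp was 2.58-fold higher in sh-NC/HG than sh-NC (2.49 to 2.67), and 3.26-fold lower in sh-JAML/HG than in sh-NC/HG (3.14 to 3.39). The ratio of sh-JAML/HG over sh-JAML was 1.03-fold lower (0.980 to 1.08), which includes no difference. Without added glucose, Cp was 1.23-fold lower in sh-JAML than in sh-NC (1.18 to 1.29), beyond counting error but under 2-fold. Its exons share 1.13% of their bases with Hps3, where the read assignment is ambiguous.

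**Figure D1:**
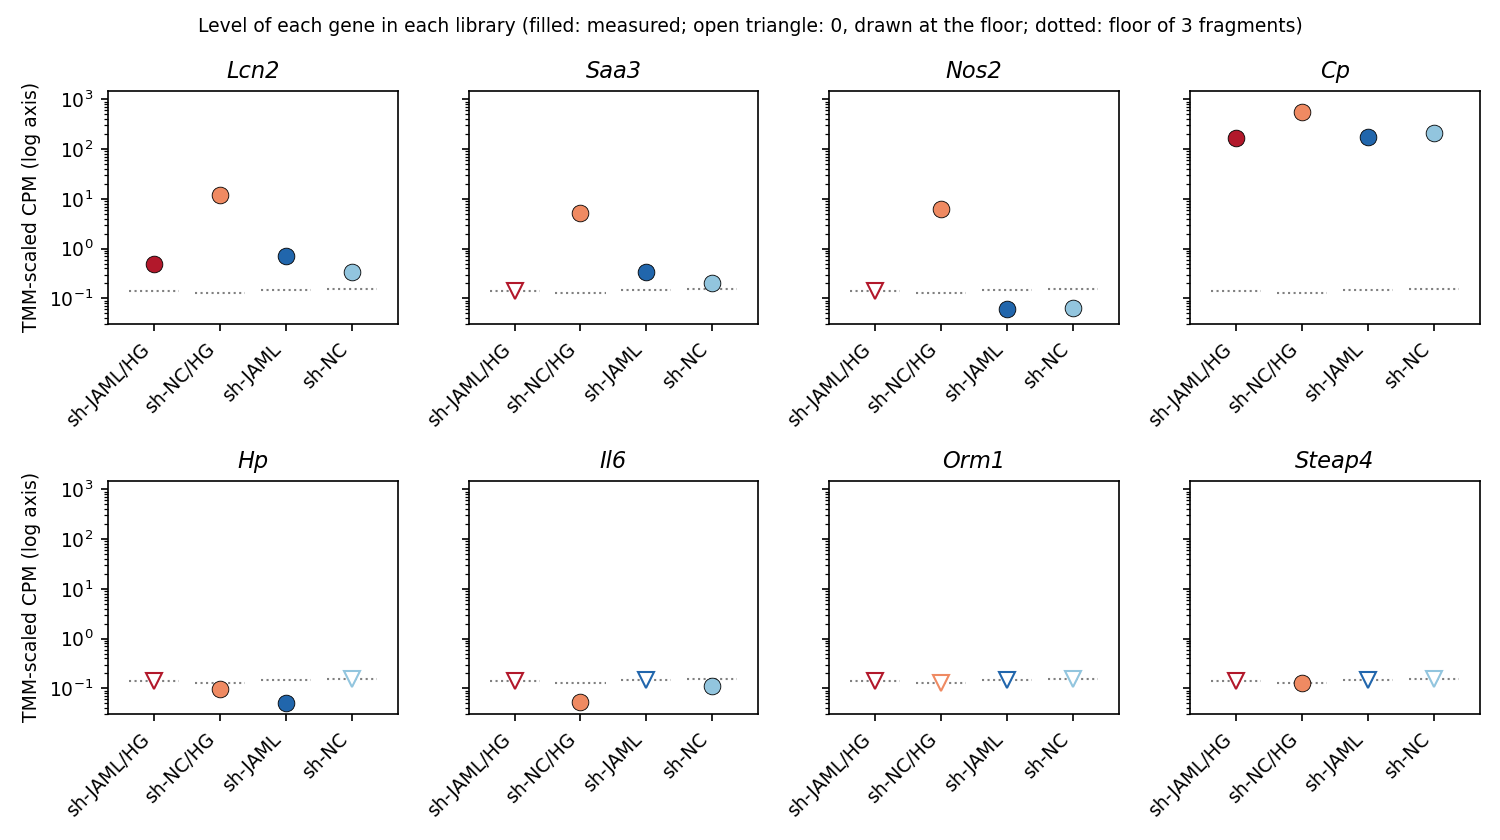
TMM-scaled CPM on a log axis for each of the 8 genes in sh-JAML/HG, sh-NC/HG, sh-JAML and sh-NC, 1 point per library. Open triangles are libraries at 0 drawn at the floor, dotted lines are the floor of 3 fragments, and sh-NC/HG is the highest library for Lcn2, Saa3, Nos2 and Cp (11.7, 5.13, 6.25 and 546 CPM).

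The remaining members could not be compared at this depth. Hp, the gene of the haemoglobin scavenger haptoglobin on chromosome 8 from 109575128 to 109579172 (ENSMUSG00000031722), had 0 units in sh-JAML/HG and 9 in sh-NC/HG, against 4 in sh-JAML and 0 in sh-NC. Il6, on chromosome 5 from 30013114 to 30019981 (ENSMUSG00000025746), encodes the main inducer of acute phase genes in liver, and had 0, 5, 0 and 9 units in the same order. Steap4, on chromosome 5 from 7960457 to 7982213 (ENSMUSG00000012428), encodes a metalloreductase for iron and copper, and had 12 units in sh-NC/HG and 0 in each other library. Orm1, on chromosome 4 from 63344560 to 63348163 (ENSMUSG00000039196), encodes alpha-1-acid glycoprotein and had 0 units everywhere. Counts of 0 allow levels up to 0.142 CPM in sh-JAML/HG and 0.129 in sh-NC/HG, against 0.150 in sh-JAML and 0.151 in sh-NC. The culture in which Lcn2, Saa3 and Nos2 were high thus held 5 units of Il6 mRNA, which is under the floor.

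Per kilobase of exon, which allows levels to be set between genes, Cp was far above the others in every library. In sh-NC/HG the levels were 57.1 CPM per kb for Cp, 4.46 for Lcn2, 1.97 for Saa3 and 1.42 for Nos2. In sh-JAML/HG, Cp was at 17.5 and Lcn2 at 0.189 CPM per kb, with Saa3 and Nos2 at 0. Cp, the member with the highest level, thus had the smallest fold in sh-NC/HG over sh-NC. The order of folds among Lcn2, Saa3 and Nos2 was not resolved, because their counting intervals overlap.

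Of the 8 members, 4 passed a mean count of 50 over the libraries, and of these Lcn2, Saa3 and Nos2 passed through sh-NC/HG alone: over the other 3 libraries their means were 41.7, 14.3 and 3.33 units. A gene that enters in this way had to be high in sh-NC/HG, so a count over the members that passed supports nothing. Cp averaged 14935 units over the other 3 libraries. In sh-NC/HG over sh-NC, 4 members were at least 2-fold higher, where 4.65% of 14187 measured genes were higher by that much and 3.26% lower. Among the 2167 genes with a mean count of 100 to 500, the range that holds Lcn2, Saa3 and Nos2, the share at least 2-fold higher was 11.6%. Of the 14187 ratios in this pair, with libraries at 0 set to the floor and ranked from the highest, Nos2 was in place 6, Lcn2 in place 12, Saa3 in place 15 and Cp in place 354. In sh-JAML/HG over sh-NC/HG, 4 members were at least 2-fold lower, where 4.77% of measured genes were lower by that much and 2.81% higher. Both pairs use the sh-NC/HG library, so they are not separate evidence.

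In sh-JAML/HG over sh-JAML, 1 member was at least 2-fold lower, Saa3, where 1.54% of measured genes were lower by that much and 1.31% higher. In sh-JAML over sh-NC, 1 member was at least 2-fold higher, Lcn2, where 1.31% of measured genes were higher by that much and 1.40% lower. In sh-JAML/HG over sh-NC, 0 members were 2-fold apart, where 1.5% of measured genes were at least that much higher and 1.60% lower. In that last pair Lcn2 was 1.46-fold higher in sh-JAML/HG (0.523 to 4.50) and Cp was 1.27-fold lower (1.21 to 1.32). The single calls rest on few fragments, with 0 units in sh-JAML/HG and 27 in sh-JAML for Saa3, and 56 units in sh-JAML and 27 in sh-NC for Lcn2.

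**Figure D2:**
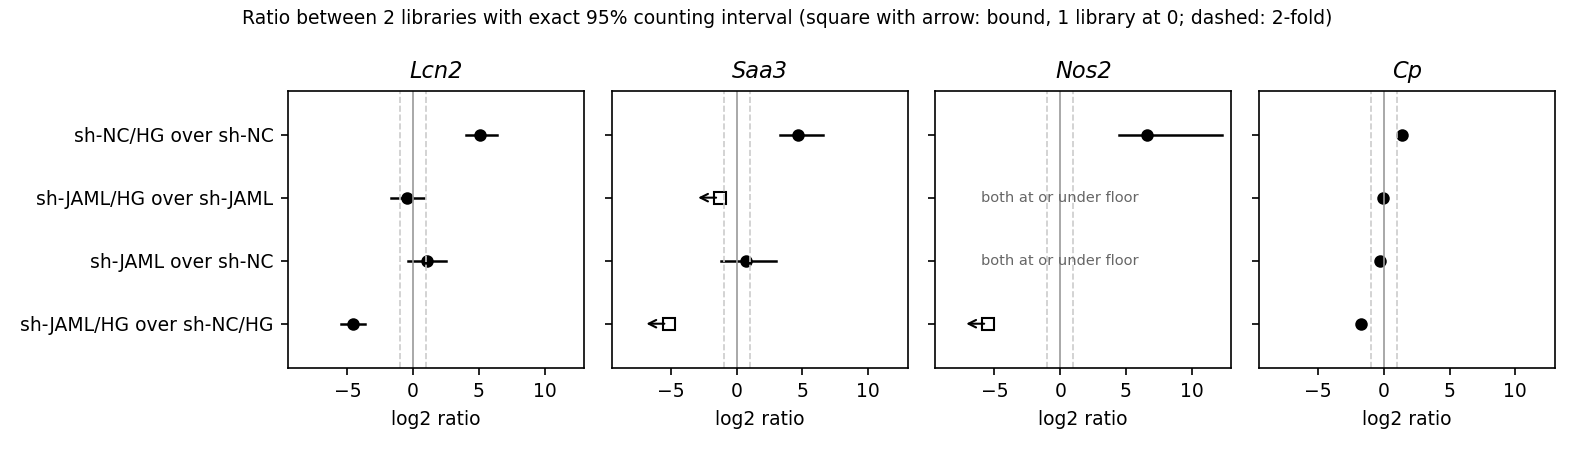
log2 of the fold between libraries, without a prior count, for Lcn2, Saa3, Nos2 and Cp in 4 pairs of libraries, with exact 95% counting intervals as bars and squares with arrows for bounds where 1 library was at 0. The ratios of sh-NC/HG over sh-NC lie above the dashed line of 2-fold for all 4 genes (34.5-fold, 25.5-fold, 99.4-fold and 2.58-fold), and those of sh-JAML/HG over sh-NC/HG lie below it.

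On the log2 scale the ratio with and without added glucose was -0.48 in the sh-JAML pair and 5.06 in the sh-NC pair for Lcn2. For Saa3 it was -1.18 as a bound in the sh-JAML pair and 4.59 in the sh-NC pair. For Cp it was -0.04 in the sh-JAML pair and 1.37 in the sh-NC pair. These log2 ratios carry a prior count of 1, so they lie slightly closer to 0 than the folds. Lcn2, Saa3 and Cp thus lay above 2-fold on the axis of the sh-NC pair and near or below 0 on that of the sh-JAML pair.

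**Figure D3:**
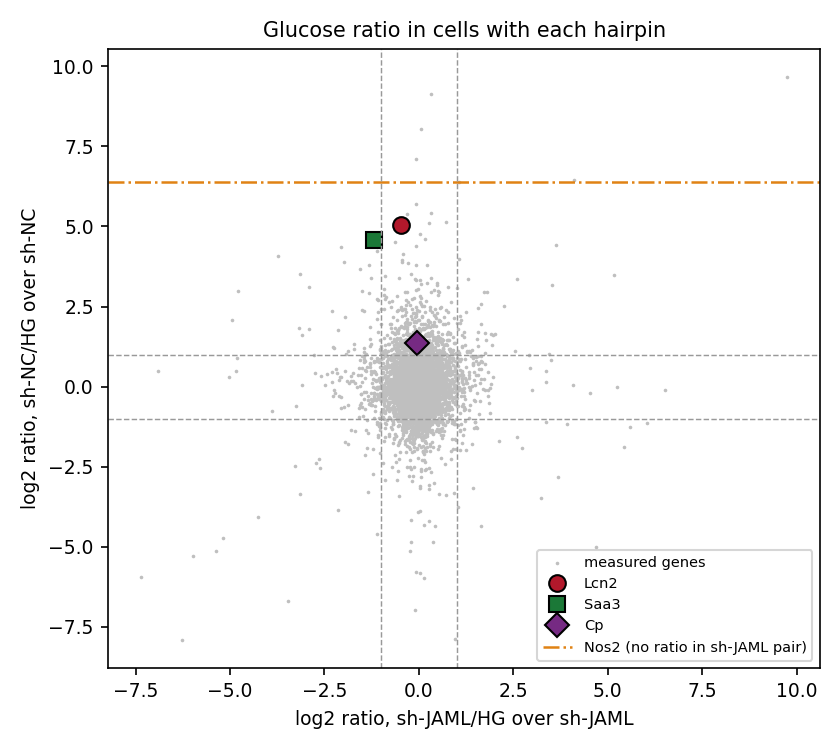
Each measured gene by its log2 ratio of sh-JAML/HG over sh-JAML on the horizontal axis and of sh-NC/HG over sh-NC on the vertical axis, with dashed lines at 2-fold. Lcn2 (-0.48 and 5.06), Saa3 (-1.18 as a bound, and 4.59) and Cp (-0.04 and 1.37) lie above the upper line, and the line for Nos2 at 6.39 has no horizontal value because both sh-JAML libraries were under the floor.

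Of the genes most closely related to the members, Steap1, Steap2 and Steap3 passed the count minimum, and each was under 2-fold apart in sh-NC/HG over sh-NC. Saa1, Saa2 and Saa4, the other serum amyloid A genes, had 0 to 13 units in every library, and in sh-NC/HG they had 10, 11 and 13. Orm2 and Orm3 had 0 to 6 units. Of the other nitric oxide synthases, Nos1, the neuronal form, had 33 units in sh-JAML/HG and 46 in sh-NC/HG, against 9 in sh-JAML and 20 in sh-NC. Nos3, the endothelial form, had 32, 70, 36 and 44 units in the same order. Steap1, a metalloreductase gene related to Steap4, was at 77.2 CPM in sh-JAML/HG and 131 in sh-NC/HG, against 86.1 in sh-JAML and 93.8 in sh-NC, and Steap2 at 160, 197, 170 and 185 CPM. Steap3 was at 0.825 to 1.36 CPM. Heph, a ferroxidase gene related to Cp, had 0 to 12 units, and Hephl1 had 0 everywhere.

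Of 37 other acute phase genes, 11 were measured. In sh-NC/HG over sh-NC, 3 of the 11 were at least 2-fold higher, and 3 were lower by as much, with a median log2 ratio of 0.27, against 0.00 over all measured genes, of which 4.65% were higher and 3.26% lower by 2-fold. With the minimum taken over the other 3 libraries, 10 were measured, 2 were higher and 3 lower, and the median was 0.25. Under that same minimum, 524 of 14031 genes were higher and 508 lower. Of the 3 on the high side, C4b and C3 are complement genes. C4b was at 0.319 CPM in sh-JAML/HG and 7.74 in sh-NC/HG, against 0.262 in sh-JAML and 0.214 in sh-NC, so it was 36.2-fold higher in sh-NC/HG than sh-NC (14.8 to 143). It passed the count minimum through sh-NC/HG alone, with a mean of 21.7 units over the other 3 libraries. Its neighbour C4a is nearly identical, so reads can be split between them. C3, the central complement component, was at 25.6, 420, 27.7 and 41.2 CPM in the same order, 10.2-fold higher in sh-NC/HG than sh-NC (9.50 to 11.0). On the low side, Mt1, a metallothionein gene that inflammation and metals induce, was at 909 CPM in sh-JAML/HG and 119 in sh-NC/HG, against 698 in sh-JAML and 438 in sh-NC. Mt1 was therefore 3.68-fold lower in sh-NC/HG than sh-NC (3.52 to 3.84). Ptx3, a long pentraxin gene, was 5.19-fold lower in that pair, on 19 units in sh-NC/HG and 84 units in sh-NC (1.81 to 16.7). Of the 11 genes, 0 were 2-fold apart in sh-JAML/HG over sh-JAML, with a median of 0.28. Few of all measured genes were apart in that pair, 1.31% higher and 1.54% lower, so 0 of 11 does not set this list apart. Hamp, the gene of the iron hormone hepcidin, had 0 to 4 units, and 11 of the 37 genes, among them Crp and A2m, had 0 in every library.

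In the interleukin-6 family and gp130 list, 19 of 22 genes were measured. In sh-NC/HG over sh-NC, 4 were at least 2-fold higher, and 0 were lower by as much, with a median log2 ratio of 0.43. Of all measured genes, 4.65% were higher by as much. With the minimum taken over the other 3 libraries, which leaves out Il11, these were 3 of 18 genes and a median of 0.36. Under that same minimum, 524 of 14031 genes were higher by as much. Lifr, the leukaemia inhibitory factor receptor gene, was at 1.61 CPM in sh-JAML/HG and 31.4 in sh-NC/HG, against 4.02 in sh-JAML and 2.26 in sh-NC. It was 13.9-fold higher in sh-NC/HG than sh-NC (10.3 to 19.2), and 2.50-fold lower in sh-JAML/HG than in sh-JAML (1.66 to 3.87). Osmr, the oncostatin M receptor gene, was at 18.4, 85.5, 16.0 and 23.7 CPM in the same order of libraries, 3.60-fold higher in sh-NC/HG than sh-NC (3.26 to 3.99). In sh-JAML/HG over sh-JAML, 0 of the 19 were at least 2-fold higher and 1 was lower, which was Lifr. Over all measured genes, 1.31% were higher by as much in that pair and 1.54% lower.

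Of 26 NF-kB and C/EBP regulators and feedback genes, 25 were measured, and in sh-NC/HG over sh-NC 3 were at least 2-fold higher and 0 lower, with a median of 0.01. Over all measured genes, 4.65% were higher and 3.26% lower by 2-fold in this pair, with a median of 0.00. Cebpd, the C/EBP-delta gene, was at 6.37 CPM in sh-JAML/HG and 42.5 in sh-NC/HG, against 6.87 in sh-JAML and 9.42 in sh-NC, 4.51-fold higher in sh-NC/HG than sh-NC (3.86 to 5.31). Cebpa, the C/EBP-alpha gene, was 2.19-fold higher in that pair (1.54 to 3.17). Of the 25 genes, 0 were 2-fold apart in sh-JAML/HG over sh-JAML, where 1.31% of all measured genes were higher by as much and 1.54% lower. Cebpd was 1.08-fold lower in that pair (0.844 to 1.38).

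Around Nos2, 14 of 22 nitric oxide and arginine genes were measured. In sh-NC/HG over sh-NC, 2 were at least 2-fold higher, and 2 were lower by as much, with a median of 0.26. Over all measured genes, 4.65% were higher and 3.26% lower by 2-fold in this pair, with a median of 0.00. Gch1, which makes the tetrahydrobiopterin cofactor of nitric oxide synthases, was at 3.33 CPM in sh-JAML/HG and 7.78 in sh-NC/HG, against 2.72 in sh-JAML and 2.53 in sh-NC, 3.08-fold higher in sh-NC/HG than sh-NC (2.26 to 4.33). Ddah1, which degrades methylarginine inhibitors of these enzymes, was 2.03-fold higher (1.87 to 2.20). Ass1, which takes part in remaking arginine from citrulline, was 2.20-fold lower in sh-NC/HG than sh-NC (2.01 to 2.40), and Qdpr, which recycles biopterin, was 2.09-fold lower (1.90 to 2.30). None of these 14 was 2-fold apart in sh-JAML/HG over sh-JAML, where 1.31% of all measured genes were higher by as much and 1.54% lower.

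Around the iron-related members, 20 of 24 iron and heme genes were measured. In sh-NC/HG over sh-NC, 0 were at least 2-fold higher and 1 was lower: Flvcr1, a heme exporter gene, was 2.09-fold lower (1.78 to 2.47). The median was 0.02, against 0.00 over all measured genes, of which 4.65% were higher and 3.26% lower by 2-fold. Among 10 genes for receptors of the members' proteins, 6 were measured. Beside the same 4.65% of all measured genes, 1 of the 6 was at least 2-fold higher. That was P2rx7, an ATP-gated channel gene reported to respond to serum amyloid A, at 1.47 CPM in sh-JAML/HG and 6.10 in sh-NC/HG, against 1.62 in sh-JAML and 1.51 in sh-NC, 4.04-fold higher in sh-NC/HG than sh-NC (2.71 to 6.20). Of the receptors for lipocalin-2, Lrp2 (megalin) was at 232, 420, 273 and 299 CPM in the same order, and Slc22a17 had 0 to 8 units. Neither list had a gene that was 2-fold apart in sh-JAML/HG over sh-JAML, where 1.31% of all measured genes were higher and 1.54% lower.

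**Figure D4:**
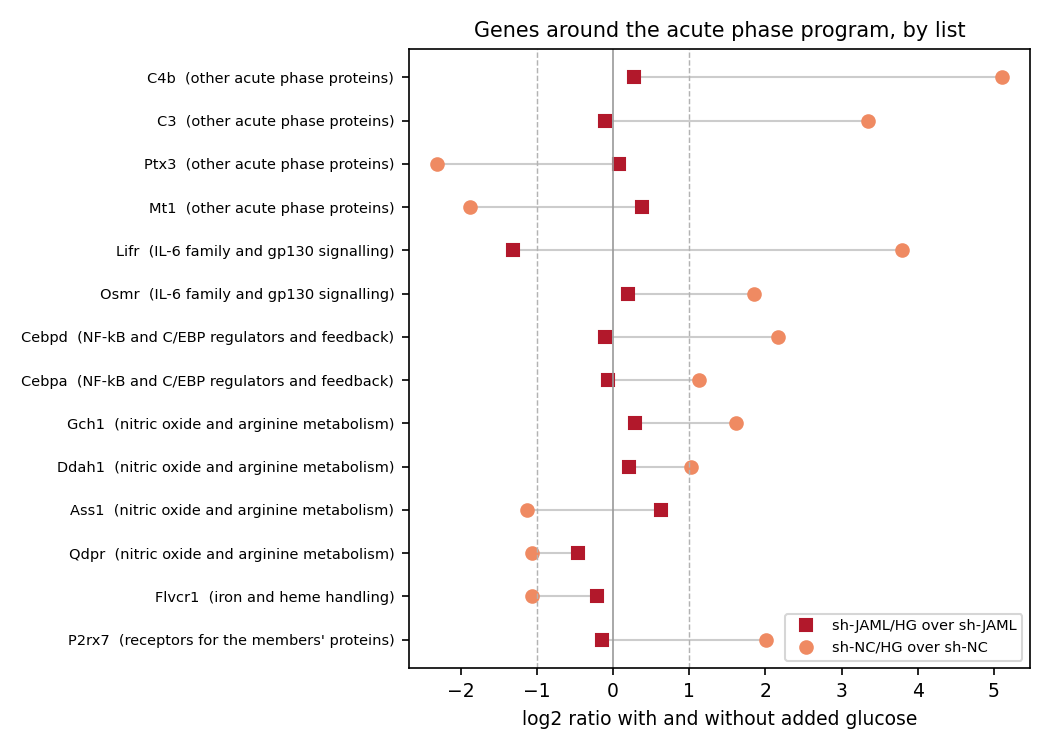
log2 ratio of sh-JAML/HG over sh-JAML (squares) and of sh-NC/HG over sh-NC (circles) for 14 genes, taken as up to 2 highest and 2 lowest ratios of each related list among genes 2-fold apart in the sh-NC pair. Circles run from 5.10 for C4b to -2.31 for Ptx3, and the choice of genes placed every circle beyond 2-fold. Of the squares, 13 of 14 lie inside the dashed lines of 2-fold and Lifr lies at -1.32. Few of all measured genes passed those lines in the sh-JAML pair, 1.31% upwards and 1.54% downwards. The 13 squares therefore do not set these genes apart.

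The profile over the 4 libraries that lies midway among Lcn2, Saa3, Nos2 and Cp was, on the centred log2 scale, -0.97 in sh-JAML/HG and 3.40 in sh-NC/HG, against -0.57 in sh-JAML and -1.43 in sh-NC. Lcn2 was nearest to it, at a root-mean-square distance of 0.139, and Cp was farthest, at 1.29. Over these 4 libraries, the genes outside the set with the smallest distance were C4b at 0.339, the mannose receptor family gene Mrc2 at 0.340, the decorin gene Dcn at 0.424, Frmpd4 at 0.427, Lifr at 0.502 and the chemokine gene Ccl20 at 0.559. Dcn had 49 units in sh-JAML/HG and 601 in sh-NC/HG, against 64 in sh-JAML and 34 in sh-NC. Mrc2 had 20, 395, 26 and 21 units, and Ccl20 had 36, 492, 36 and 41 units, in the same order. This order of likeness depended on how a count of 0 was treated: with zeros kept at 0, Lifr and Mrc2 were the 2 of these 6 that stayed among the nearest 6. C4b, Mrc2, Dcn, Frmpd4 and Ccl20 passed the mean count of 100 through sh-NC/HG alone, with means of 21.7 to 49.0 units over the other 3 libraries, so a peak there was fixed by the count minimum and their likeness supports nothing.

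Markers of other cells that make these genes were set beside the members. Of 9 hepatocyte markers, 8 were at or under the floor in every library, and Ttr, Fga, Ahsg, Serpina1a and Cyp2e1 were at 0 in all of them. Of 15 leukocyte markers, 3 passed the count minimum, and their summed level was 59.9 CPM in sh-JAML/HG and 58.6 in sh-NC/HG, against 63.2 in sh-JAML and 69.3 in sh-NC, most of it Csf1r. The number of these 15 markers at 0 was 9 in sh-JAML/HG and 5 in sh-NC/HG, against 1 in each library without added glucose. Lyz2, a lysozyme gene of myeloid cells, had 5 units in sh-JAML/HG and 282 in sh-NC/HG, against 162 in sh-JAML and 170 in sh-NC. Ptprc, the pan-leukocyte gene, had 0, 16, 24 and 25 units. Adgre1 had 0, 48, 23 and 16 units, Laptm5 had 0, 25, 19 and 8, and Tyrobp had 0, 21, 3 and 13. These were highest in sh-NC/HG, and Adgre1 was 2.56-fold higher there than in sh-NC (0.775 to 10.9), which includes no difference. Other markers were not highest there: Fcer1g had 22, 33, 30 and 48 units, Coro1a had 14, 17, 32 and 13, and S100a8 had 0, 5, 21 and 9. Of 7 endothelial markers, 1 passed the minimum, and the summed level was 1.05 CPM in sh-JAML/HG and 4.41 in sh-NC/HG, against 1.84 in sh-JAML and 1.27 in sh-NC. Most of each sum was Flt1, at 0.993, 3.78, 1.28 and 1.02 CPM in the same order. Flt1 was 3.71-fold higher in sh-NC/HG than sh-NC (2.29 to 6.44). Pecam1 had 5, 40, 21 and 2 units, and was 17.0-fold higher in that pair on few fragments (1.21 to 370). Vwf had 0, 14, 20 and 8 units. Another 4 of the 7, Kdr, Cdh5, Tek and Emcn, were at or under the floor in every library. Of 9 tubule markers, 4 passed the minimum, and the other 5, among them Slc34a1, Umod, Aqp2 and Havcr1, were at or under the floor in every library. Summed tubule markers, which include Lrp2, were at 850 CPM in sh-JAML/HG and 1333 in sh-NC/HG, against 1076 in sh-JAML and 1053 in sh-NC. The largest part was the cadherin gene Cdh16, at 437, 736, 623 and 560 CPM in the same order, and Pax8 was at 178, 173, 178 and 191 CPM. Summed mesangial and fibroblast markers, which include Dcn, were at 879, 828, 872 and 1232 CPM in the same order, and Acta2 made up most of each sum. Beside 4.65% of all measured genes higher and 3.26% lower, 2 of 5 measured genes in that list were at least 2-fold higher in sh-NC/HG over sh-NC. None was lower by as much, and both higher genes passed the minimum through sh-NC/HG alone. Dcn was 15.1-fold higher (7.28 to 31.7). Des, the desmin gene, was at 0.201 CPM in sh-JAML/HG and 2.31 in sh-NC/HG, against 0.112 in sh-JAML and 0.453 in sh-NC, 5.11-fold higher in sh-NC/HG than sh-NC (2.50 to 11.8). The part of any of these cells in the levels of Lcn2, Saa3 and Nos2 was not tested.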

How the data were processed

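RNA from 4 cultures of MPC cells was sequenced, 1 library per group. Library preparation was TruSeq RNA, per the labels' protocols. CASAVA 1.8, TopHat2 2.0.6 and build mm10 are named, per the submitters' processing notes. The authors deposited unscaled estimated counts for each Ensembl gene. How they were counted, with which annotation and strand setting, is not given in the sources used here. Headers of both control columns leave out the hairpin, and these were taken as sh-NC and sh-NC/HG from their names. The design text mentions 4 treated and 4 untreated samples, and 4 libraries were analysed. Symbols and positions came from GENCODE M21, which matched 55480 of 56393 genes, and promoter windows from RefSeq (GRCm38.p6).

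Low values were 1.51 to 2.10 times as frequent at 4, 8 and 12 as at their even neighbours, so counts were divided by 4 and rounded to whole fragments for intervals (exact Clopper-Pearson, 95%, conditional on the sum). Counts were scaled with TMM factors from edgeR 4.0.16 (R 4.3.3), and DESeq2 1.42.0 gave alternative size factors. log2 ratios used a prior count of 1, and a library at 0 was set to the floor of 3 fragments, a choice made after the values were seen. Measured genes had a mean count of at least 50, and a gene counted as apart at 2-fold with 1 library above the floor. No test was run. Ratio scripts were tested on simulated data. Other tools were Python 3.11.15, numpy 2.4.6, pandas 2.3.3, scipy 1.17.1 and matplotlib 3.10.9.

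The members and lists were chosen with earlier results of these data known. Named genes were the members, their paralogues, the 2 highest and 2 lowest of each list among genes 2-fold apart in sh-NC/HG over sh-NC, and the 6 genes nearest to the members' median profile with a mean count of at least 100. Hamp, Crp, A2m, C4a, Il11, Lrp2, Slc22a17, Il6st, Socs3, Stat3, Lbp, Mt2 and the single marker genes fall outside this rule. They were named after their values were seen. Alternatives covered scaling, prior count, the count minimum, the fold, shared exon bases and the treatment of zeros.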

Additional observations from a re-analysis of the deposited data

Results flagged for a closer look

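For Lcn2, Saa3 and Cp the log2 ratio with and without added glucose was above 0 in the sh-NC pair and below 0 in the sh-JAML pair, and with 1 library per group the difference was not tested. For Lcn2 and Cp the ratio in the sh-JAML pair lay within counting error of 0, so an opposite direction is not shown for them. The log2 ratio of the sh-JAML pair minus that of the sh-NC pair was -5.54 for Lcn2. For Saa3 it was -5.77, with sh-JAML/HG at 0 set to the floor. For Cp it was -1.40. No such difference is given for Nos2, which was under the floor in both sh-JAML libraries.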

How the results depend on the processing

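No paired analysis was possible because each group had 1 library. No member ratio of at least 2-fold changed direction. Changes of sign in smaller ratios and in list medians were not counted. The counts of members at least 2-fold apart were within 1.5 times of the reported ones in 36 of 45 alternatives, and those of all genes in 27 of 35. With the count minimum taken over the libraries other than sh-NC/HG, chosen after seeing the data, the members apart were 1 in sh-NC/HG over sh-NC and 1 in sh-JAML/HG over sh-NC/HG, which is Cp in both, and 0 in sh-JAML/HG over sh-JAML and in sh-JAML over sh-NC. Requiring the interval to lie wholly beyond 2-fold left 0 in each of these last 2 pairs. In sh-JAML over sh-NC a prior count of 4 gave 0 and a limit of 1.5-fold gave 2. With zeros kept at 0, also chosen after seeing the data, 1 member, Saa3, was apart in sh-JAML/HG over sh-NC. Without a count minimum, the genes apart were 2841 in sh-NC/HG over sh-NC, 1816 in sh-JAML/HG over sh-JAML, 1664 in sh-JAML over sh-NC, 2806 in sh-JAML/HG over sh-NC/HG and 1805 in sh-JAML/HG over sh-NC. At a mean count of 100 they were 218 in sh-JAML/HG over sh-JAML, 212 in sh-JAML over sh-NC and 266 in sh-JAML/HG over sh-NC. Both settings use gene sets of other sizes than the 14187 measured genes, so these counts do not show a change in share. The set without a minimum was the 56393 genes of the table less the 27916 at 0 in every library. Depth limits Hp, Il6, Orm1 and Steap4 in every library, and Saa3 and Nos2 outside sh-NC/HG.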

Other observations

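Il6st, the gene of the shared receptor subunit gp130, differed between the hairpins and little between the glucose conditions, and, like the other genes of this paragraph, was named after its values were seen. It was at 399 CPM in sh-JAML/HG and 771 in sh-NC/HG, against 379 in sh-JAML and 727 in sh-NC. It was 1.93-fold lower in sh-JAML/HG than in sh-NC/HG (1.88 to 1.98) and 1.92-fold lower in sh-JAML than in sh-NC (1.87 to 1.97), in pairs of libraries that share none. Its ratios with and without added glucose were 1.05-fold higher in the sh-JAML pair and 1.06-fold higher in the sh-NC pair. Socs3, the feedback inhibitor of gp130 signalling, was at 11.7 CPM in sh-JAML/HG and 36.0 in sh-NC/HG, against 10.7 in sh-JAML and 10.4 in sh-NC, highest in sh-NC/HG as for Lcn2. Stat3 itself was at 158, 262, 151 and 156 CPM in the same order, 1.68-fold higher in sh-NC/HG than sh-NC (1.61 to 1.76). Lbp, a liver acute phase gene for a lipopolysaccharide-binding protein, was at 53.4, 204, 69.7 and 57.8 CPM, 3.53-fold higher in sh-NC/HG than sh-NC (3.31 to 3.77). Mt2, the neighbour of Mt1, was at 241, 41.1, 193 and 109 CPM. With 1 library per group, none of these differences was tested.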
